A study of Mus musculus with 4 samples.

Results

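The genes described here are 33 that mark satellite cells, the stem cells of skeletal muscle, on their surface or are linked with their quiescent state. They were taken by symbol from the deposited gene tables, and all 33 were found, each with 1 of the 55487 gene identifiers. The 4 libraries came from muscle stem cells of 2 mice that carried the Tg:Pax7-nGFP transgene, a nuclear green fluorescent reporter of Pax7. Minced skeletal muscle of each mouse was exposed, in its first digestion, to 1 of 2 vivo-morpholinos, antisense oligomers that enter cells without transfection. The Numb exon 6 morpholino was designed to keep exon 6 of Numb out of the mature transcript, and a control morpholino was used for comparison, so that each group held 2 libraries, 1 from each mouse. Every library, control included, therefore came from reporter tissue that had been minced, digested and exposed to a morpholino, and no untreated tissue is among the samples. The sources used here give neither the age nor the sex of the mice.

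Satellite cells lie between the myofibre and its basal lamina, held there by cadherins and other adhesion molecules, and stay out of the cell cycle until injury. Calcitonin receptor, Tie2 (encoded by Tek), Notch and teneurin signals are known to keep them quiescent, while the hepatocyte growth factor receptor Met is known for its part in activation. Isolation itself activates these cells: Myod1 appears, immediate early genes are induced and many quiescence transcripts decline within hours. Numb is an endocytic adaptor that inhibits Notch signalling.

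The libraries carried the defining transcripts of satellite cells. Pax7 stood at 37.0 and 50.9 TPM in mouse 1, control first, and at 51.4 and 59.7 TPM in mouse 2, while Myod1 stood between 1247 and 1543 TPM. TPM is a level scaled to transcript length and library, and the 10 satellite cell markers summed to between 9497 and 11056 TPM, of which Sdc4 alone held 66.3% to 70.2%. Estimated counts summed to between 230431665 and 355411827 per library. How these counts were made from the reads is not stated, so the totals are not taken as numbers of fragments. Numb itself stood at 27.2, 39.7, 37.0 and 40.2 TPM in mouse 1 (control, Numb exon 6) and mouse 2 (control, Numb exon 6). Values per gene do not show whether exon 6 was skipped.

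Markers of other cell types were present too, and none of the 64 on the other 7 lists was at 0 in every library. Of the 8 summed lists, satellite cells included, 7 were higher with Numb exon 6 in each mouse, and 6 (satellite cell, fibro-adipogenic progenitor, glial, leukocyte, myofibre and tenocyte) did not overlap between the morpholinos. No share over all genes goes with these counts of lists. TPM has no further scaling between libraries, and 15395 of the 27551 tested genes had a log2 fold change above 0 on log2(TPM + 1). The 10 fibro-adipogenic progenitor markers summed to between 767 and 962 TPM. They were led by Col3a1 (267 to 390.3 TPM) and Dpt (253 to 275 TPM), both above Pax7. Col3a1, Dpt, Dcn and Col1a1 made up most of that sum. None of the rest exceeded 14.7 TPM, and Pdgfra, on the same list, did not exceed 2.06 TPM. The 8 myofibre markers, led by Actn3 and Atp2a1, summed to between 154 and 180 TPM. Actn3 made up most of that sum, while Ckm did not exceed 1.40 TPM. The 9 glial markers, led by Pmp22 and Mal, summed to 75.7 and 88.3 TPM in the controls and to 131 and 155 TPM with Numb exon 6. Pmp22, which other cell types also express, made up most of that sum, while Sox10, a defining gene of glia, did not exceed 0.537 TPM. The 11 leukocyte markers, led by Lyz2 and Cd79a, summed to 15.5 and 11.0 TPM in the controls and to 24.6 and 31.5 TPM with Numb exon 6. Lyz2, which made up most of that rise, stood at 6.09 and 12.3 TPM in mouse 1, control first, and at 6.14 and 21.2 TPM in mouse 2. On counts scaled to the library, 7 of the 11 were higher in both mice (28.1% of all tested genes). Csf1r and C1qa were lower in both (27.3%). The 12 endothelial markers, led by Cldn5 and Pecam1, summed to 60.2 and 101 TPM in mouse 1, control first, and to 61.4 and 57.5 TPM in mouse 2, so that 1 library stood apart. The 9 markers of pericytes and smooth muscle summed to between 126 and 188 TPM, most of it Acta2 and Tagln. That sum was higher in both libraries of mouse 1. The 5 tenocyte markers, led by Thbs4 and Fmod, summed to between 47.6 and 60.3 TPM.

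**Figure D1:**
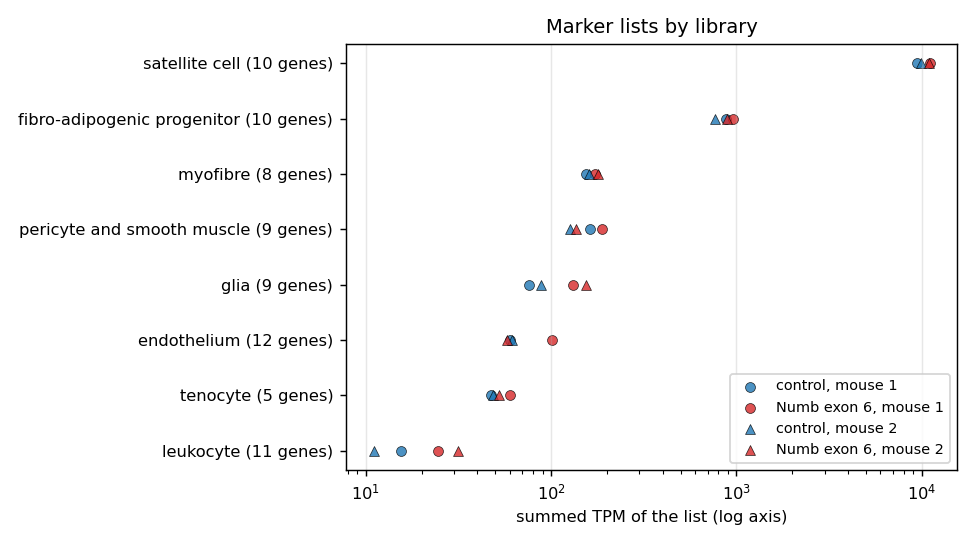
Summed TPM of 8 marker lists (log axis) in each library, with blue for the control and red for the Numb exon 6 morpholino, circles for mouse 1 and triangles for mouse 2. The satellite cell list lies at 9497 to 11056 TPM in every library, 6 of the 8 lists do not overlap between the morpholinos, with Numb exon 6 the higher, and the endothelial list is highest with Numb exon 6 in mouse 1.

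In the control libraries the 33 genes spanned more than 4 orders of the log10 scale. Asb5, Gpx3 and Ddx5 ranked 19, 21 and 50 among all genes by mean control TPM. Of the 33, 12 stood above 100 TPM in the mean of the controls, 15 between 10 and 100 TPM, 5 between 1 and 10 TPM and 1, Ccdc85a, under 1 TPM. Together they took 1.80% and 1.53% of all TPM in the 2 controls, mouse 1 first, and 2.04% and 2.11% with Numb exon 6. Asb5 and Gpx3 alone made up 57.5% to 67.2% of that sum. Of the 32 pairs of neighbours in the order of level, 12 had overlapping values in the 2 controls, so their order is not settled. Asb5 and Gpx3 are such a pair: Gpx3 was the higher in mouse 1 and Asb5 in mouse 2. The block from Tenm4 through Calcr, Nfia, Rgs2, Tek, Pdzd2, Met, Nfix and Megf10 lay within a narrow band, from 35.5 to 58.7 TPM in the control mean.

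**Figure D2:**
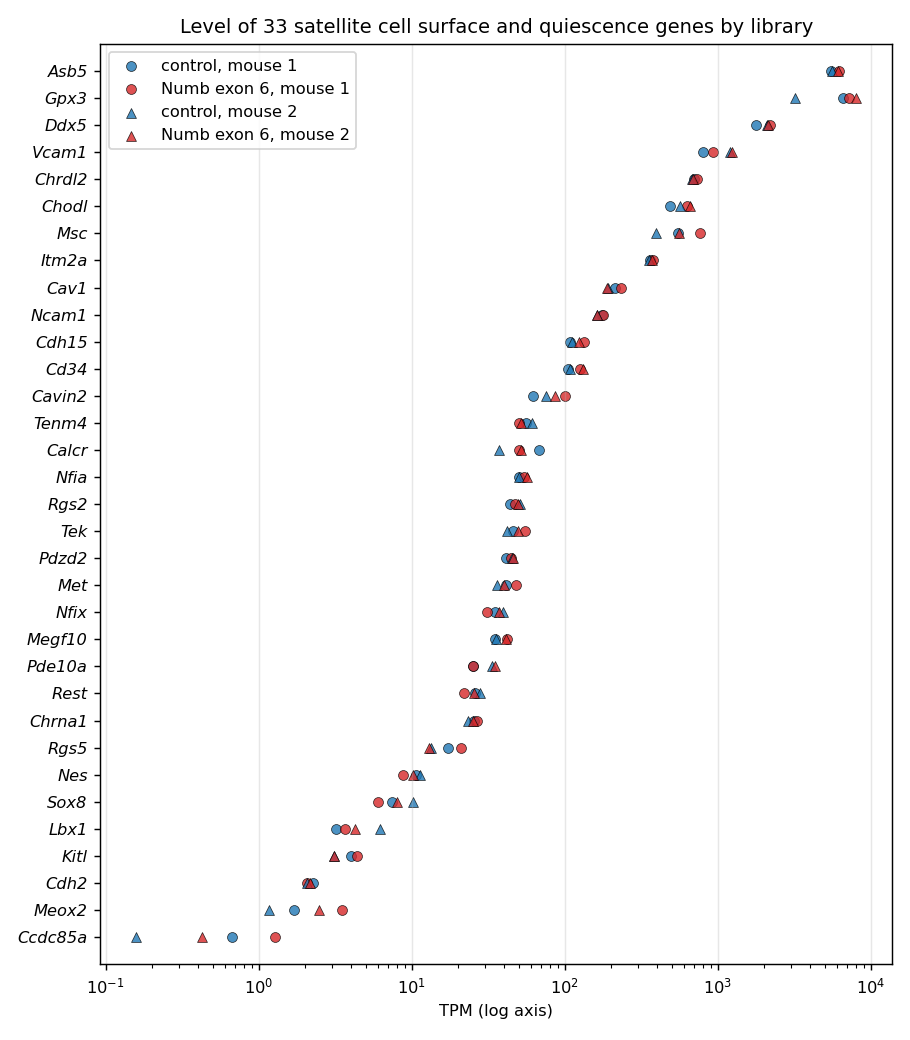
TPM of the 33 genes (log axis) in each library, ordered by the mean of the 2 controls. Points are single libraries, with blue for control and red for Numb exon 6, circles for mouse 1 and triangles for mouse 2. Most genes have 4 points close together, while Gpx3 and Calcr have a control library of mouse 2 that lies below the others.

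The morpholinos were compared to ask whether blocking Numb exon 6 alters transcripts tied to the satellite cell surface and to quiescence. None of the 33 passed the test: edgeR called 0 higher and 0 lower, against 0% of the 27551 genes tested, and each of the 33 had an adjusted p of 0.999 (quasi-likelihood, Benjamini-Hochberg). DESeq2 also called 0 of the 33, against 0.236% of all genes, and limma-voom 0, against 0% of all genes. All 33 passed the filter on low counts. These p-values rest on 2 mice. Their median log2 fold change, Numb exon 6 minus control, was 0.06 against 0.005 over all tested genes, and 28 of the 33 lay within 0.3 of 0. A log2 fold change over 0.5 in size was found for 3 (Gpx3, Meox2 and Ccdc85a), against 31.3% of all genes. That share includes many genes of low counts: 10075 of the 27551 reached a CPM of 5 in 2 libraries. Of the 33, 31 did so, all but Meox2 and Ccdc85a. The share among genes of like level was not taken, so the 33 are not read as unusually stable. Within mouse 1 the median log2 ratio was 0.09 and within mouse 2 it was 0.02, against 0.002 for all genes in each. An unadjusted p under 0.05 was found for 2 of the 33 (Cavin2 and Meox2), against 4.16% of all genes. Blocking on the mouse, edgeR again called 0, and the unadjusted p was under 0.05 for 6 (Chodl, Msc, Cavin2, Rest, Meox2 and Ccdc85a), against 6.09% of all genes. With the same block, DESeq2 called 1 of the 33 (Msc, DESeq2 adjusted p = 0.044), against 0.57% of all genes.

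Direction was shared by the mice in 22 of the 33. By CPM, counts scaled to the library total with TMM factors, 14 were higher with Numb exon 6 in both mice, against 28.1% of all tested genes, and 8 were lower in both, against 27.3%. The other 11 went opposite ways. Of the 8, Chrdl2, Ncam1 and Pdzd2 were above 0 on the log2(TPM + 1) scale. Groups did not overlap in 15 genes, 10 of them higher with Numb exon 6 (17.4% of all genes) and 5 lower (17.1%). The summed TPM of the satellite cell, fibro-adipogenic progenitor, glial, leukocyte, myofibre and tenocyte markers was also higher with Numb exon 6, without overlap. Those sums are on TPM, without TMM factors, unlike the CPM by which those 10 genes were counted. The part of other cell types in the values of the 10 was not tested. For 28 of the 33 the 95% interval of the log2 fold change lay between -1 and 1, so that a change of over 2-fold is outside it, while the intervals of Gpx3, Msc, Lbx1, Meox2 and Ccdc85a reach further. The median of the 33 was -0.03 when the mouse 1 library with Numb exon 6 was left out.

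**Figure D3:**
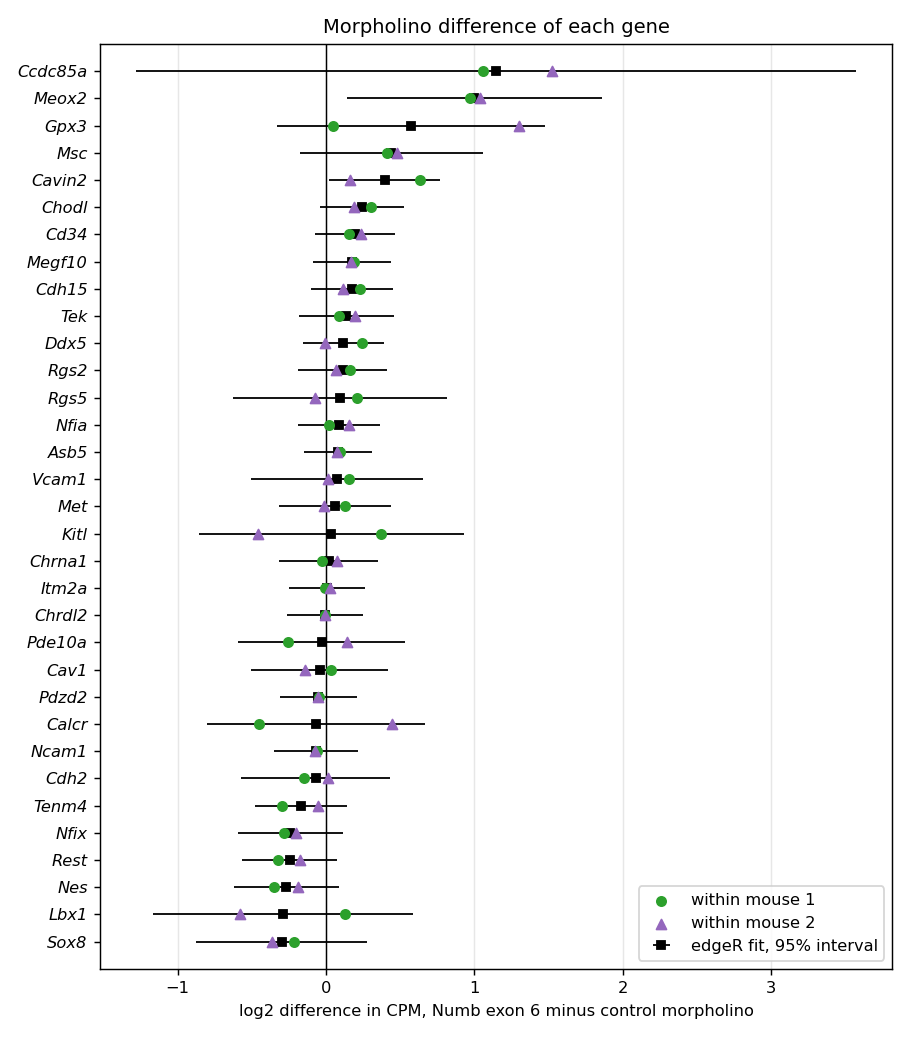
Log2 difference in CPM, Numb exon 6 minus control, for each gene: black squares with bars are the edgeR log2 fold change and its 95% interval, green circles the ratio within mouse 1 and purple triangles that within mouse 2. All intervals but those of Meox2 and Cavin2, which are not adjusted for the number of genes, cross 0, and the mice part most for Gpx3 (0.05 and 1.30).

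Among the receptors and ligands, 0 of 5 passed the test, with a median log2 fold change of 0.04. Calcr (GRCm38 chromosome 6, 3685680 to 3764714), the calcitonin receptor of quiescent satellite cells, stood at 67.5 and 50.3 TPM in mouse 1, control first, and at 37.4 and 51.9 TPM in mouse 2. The 2 Numb exon 6 libraries were nearly equal and the 2 controls lay on either side of them, so the groups overlapped. The mice gave log2 ratios of -0.45 and 0.44, and the log2 fold change was -0.07 (95% interval -0.80 to 0.67; n = 2 per group). Leaving out the mouse 2 control made it -0.44, and leaving out the mouse 1 control 0.43, while on log2(TPM + 1) it was 0.02. Of the membrane proteins that alter the ligand choice of this receptor, Ramp2 stood between 17.3 and 20.3 TPM and Ramp1 and Ramp3 under 1 TPM.

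Tek, the Tie2 receptor for angiopoietin, stood at 46.3 and 55.1 TPM in mouse 1 and at 42.3 and 49.9 TPM in mouse 2, each time with the control first. The groups did not overlap on this scale but did so by CPM, and its log2 fold change was 0.14 ± 0.13 (SE). Its ligand Angpt1 stood between 1.09 and 2.26 TPM and the endothelial relative Tie1 between 2.96 and 4.39 TPM. Tek lay at least 10 times above Tie1 in each library. Both are known from endothelium, and the part of endothelial RNA in the Tek values was not tested. Met, the receptor of hepatocyte growth factor, stood between 36.1 and 48.0 TPM and Hgf between 3.02 and 4.75 TPM, and the log2 fold change of Met was 0.06 ± 0.15 (SE). Kitl, the ligand of the receptor Kit, stood at 4.04, 4.43, 3.10 and 3.12 TPM in mouse 1 (control, Numb exon 6) and mouse 2 (control, Numb exon 6), with Kit itself at no more than 0.095 TPM. By CPM, Kitl had log2 ratios of 0.37 and -0.46 in the 2 mice, so its direction differed between them.

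Chrna1 (chromosome 2, 73563215 to 73580338), the alpha subunit of the muscle acetylcholine receptor, stood at 25.7 and 26.6 TPM in mouse 1 and at 23.3 and 25.2 TPM in mouse 2. Its log2 fold change was 0.02 (95% interval -0.31 to 0.35). The other subunits were far apart in level: Chrnb1 stood between 258 and 327 TPM, whereas Chrnd, Chrng and Chrne did not exceed 1.31, 1.02 and 0.141 TPM. Musk, the receptor kinase that organises the synapse, stood between 522 and 574 TPM, and Rapsn, the scaffold that clusters the receptor, between 33.6 and 54.2 TPM.

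Of the 9 adhesion and other surface proteins, 0 passed the test, 5 were higher and 2 lower in both mice, and the median log2 fold change was 0.07. Vcam1, the integrin ligand used to sort satellite cells, was the most abundant, at 802 and 939 TPM in mouse 1, control first, and at 1201 and 1246 TPM in mouse 2. Both libraries of mouse 2 lay above both of mouse 1, and the morpholino groups overlapped (log2 fold change 0.07 ± 0.23, SE, and 0.08 ± 0.07 with the mouse as a block). Itga4, which encodes a subunit of its integrin receptor, did not exceed 0.232 TPM.

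Chodl, a membrane protein with a C-type lectin domain, stood at 486 and 627 TPM in mouse 1 and at 572 and 663 TPM in mouse 2. Both Numb exon 6 libraries lay above both controls, with log2 ratios of 0.30 and 0.19 in mouse 1 and mouse 2. The log2 fold change was 0.24 (95% interval -0.04 to 0.53), and when blocked on the mouse it was 0.25 ± 0.07 (SE; unadjusted p = 0.0206, edgeR adjusted p = 0.796). Itm2a, a membrane protein known from muscle differentiation, held between 357 and 380.3 TPM in all 4 libraries, with a log2 fold change of 0.01 ± 0.10 (SE).

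Among the cadherins, Cdh15 (M-cadherin), which joins satellite cell and myofibre, stood at 108 and 134 TPM in mouse 1 and at 111 and 123 TPM in mouse 2. Cdh2 (N-cadherin), which acts in the same niche, stood between 2.07 and 2.27 TPM, far lower on this scale, which is per transcript length. Cdh13, a cadherin without a transmembrane segment, stood between 153 and 171 TPM and Cdh11 between 0.890 and 1.33 TPM. The groups of Cdh15 did not overlap (log2 fold change 0.18, 95% interval -0.10 to 0.45), and those of Cdh2 did (-0.07 ± 0.20, SE). Catenin transcripts, whose products link cadherins to actin, were abundant, with Ctnnb1 between 182 and 198 TPM and Ctnna1 between 167 and 186 TPM.

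Cd34, a sialomucin of satellite cells that endothelium and mesenchymal progenitors share, stood at 105 and 127 TPM in mouse 1 and at 109 and 132 TPM in mouse 2. Groups did not overlap, and the log2 ratios were 0.15 and 0.23 (log2 fold change 0.19, 95% interval -0.07 to 0.46). The phagocytic receptor gene Megf10 also had groups that did not overlap, with 35.1 and 35.8 TPM in the controls and 42.2 and 41.2 TPM with Numb exon 6 (log2 fold change 0.18 ± 0.10, SE). In the opposite direction, Tenm4, a teneurin, stood at 55.9 and 61.5 TPM in the controls and at 50.6 and 52.3 TPM with Numb exon 6 (-0.17 ± 0.12, SE). It was the most abundant teneurin, above Tenm3 at 6.74 to 7.81 TPM. Ncam1, the neural cell adhesion molecule, stood between 163 and 178 TPM, with a log2 fold change of -0.07 (95% interval -0.35 to 0.22) that was 0.003 on log2(TPM + 1).

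Both secreted proteins were among the 5 most abundant of the 33, and neither passed the test. Gpx3 (chromosome 11, 54902453 to 54910377), an extracellular glutathione peroxidase that removes peroxides, stood at 6585 and 7223 TPM in mouse 1, control first, and at 3182 and 8078 TPM in mouse 2. The control library of mouse 2 held less than 1 in 2 of the level in each of the others. Mouse 1 thus gave a log2 ratio of 0.05 and mouse 2 one of 1.30, and the log2 fold change was 0.57 (95% interval -0.33 to 1.48). Without that control library it was 0.12, and without the control library of mouse 1 it was 1.23. Of the other glutathione peroxidases, Gpx4 stood between 310 and 406 TPM, highest in the control of mouse 2, and Gpx1 at 63.2 and 65.0 TPM in the controls and at 49.9 and 51.2 TPM with Numb exon 6. Chrdl2, a chordin-like antagonist of bone morphogenetic proteins, held between 684 and 729 TPM in all 4 libraries, with a log2 fold change of -0.01 (95% interval -0.26 to 0.25) that was 0.04 on log2(TPM + 1). Its relative Chrdl1 did not exceed 2.00 TPM.

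The limiters of signalling had a median log2 fold change of 0.10, and 0 of 3 passed. Rgs2 and Rgs5 encode proteins that switch off G protein signals. Rgs2 stood at 43.7 and 47.2 TPM in mouse 1 and at 51.0 and 49.7 TPM in mouse 2, and Rgs5 at 17.2, 21.1, 13.3 and 13.0 TPM in the same order. By CPM the groups of Rgs2 did not overlap (log2 fold change 0.11 ± 0.12, SE) and those of Rgs5 did (0.10 ± 0.28, SE). Rgs5, also a marker of pericytes, was higher in both libraries of mouse 1. So was the sum of the pericyte and smooth muscle list (162 and 188 TPM against 126 and 136 TPM), most of it Acta2 and Tagln. Of the pericyte genes on that list, Cspg4 was higher in mouse 1, and Kcnj8, Abcc9 and Higd1b overlapped between the mice. Pdgfrb was lower in mouse 1, at 2.97 and 3.14 TPM against 3.58 and 3.76 TPM. The part of pericyte RNA in the Rgs5 values was not tested. Of the other family members Rgs4 was the most abundant, at 130 and 137 TPM in the controls and at 222 and 173 TPM with Numb exon 6 (log2 fold change 0.52 ± 0.15, SE; edgeR adjusted p = 0.999). Pde10a, a phosphodiesterase of cyclic nucleotides, stood at 25.3 and 25.1 TPM in mouse 1 and at 33.7 and 35.2 TPM in mouse 2, with a log2 fold change of -0.03 ± 0.22 (SE) that was 0.02 on log2(TPM + 1). Pde4b, another phosphodiesterase of cyclic AMP, stood between 1274 and 1801 TPM.

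Caveolae, the small pits of the plasma membrane, are formed by caveolins and cavins. Cav1 stood at 212 and 233 TPM in mouse 1 and at 193 and 188 TPM in mouse 2, with overlapping groups (log2 fold change -0.04 ± 0.18, SE, and 0.05 on log2(TPM + 1)). Cavin2 (chromosome 1, 51289126 to 51302960) stood at 61.8 and 101 TPM in mouse 1 and at 75.8 and 86.9 TPM in mouse 2. Both Numb exon 6 libraries lay above both controls, with log2 ratios of 0.63 and 0.16 in the 2 mice. Its log2 fold change was 0.40 (95% interval 0.02 to 0.77; unadjusted p = 0.041, edgeR adjusted p = 0.999). Endothelium is rich in caveolae, and the endothelial markers had a median log2 ratio of 0.71 in mouse 1 and of -0.16 in mouse 2. The part of endothelial RNA in the Cavin2 values of either mouse was not tested. In bulk RNA, more cells of a type and more RNA per cell cannot be told apart. Cavin1, the cavin that all caveolae need, stood between 391 and 434 TPM and Cavin3 between 38.7 and 44.9 TPM, whereas the muscle fibre forms Cavin4 and Cav3 stayed at or under 1.15 TPM. Cav2 stood at 23.9 TPM with Numb exon 6 in mouse 1 and between 11.3 and 13.8 TPM in the other libraries.

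Of the 7 transcription factors and the RNA helicase Ddx5, 0 passed the test, 3 were higher and 3 lower in both mice, and the median log2 fold change was -0.07. Msc (chromosome 1, 14753346 to 14755992), known as musculin or MyoR, is a basic helix-loop-helix repressor that competes with Myod1 for E-boxes. It stood at 547 and 772 TPM in mouse 1, control first, and at 395 and 558 TPM in mouse 2. Numb exon 6 was the higher in each mouse, by log2 ratios of 0.41 and 0.48, and the mice themselves differed by a like amount, so the groups overlapped by CPM, though not by TPM. The log2 fold change was 0.44 ± 0.24 (SE), and 0.45 ± 0.07 when blocked on the mouse (unadjusted p = 0.00212, edgeR adjusted p = 0.796). When blocked on the mouse, DESeq2 called Msc (adjusted p = 0.044) and none of the other 32, against 0.57% of all genes.

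Meox2 (chromosome 12, 37108540 to 37179534), a homeobox factor of limb muscle, was one of the least abundant, at 1.70 and 3.51 TPM in mouse 1 and at 1.18 and 2.48 TPM in mouse 2. Numb exon 6 libraries held about 2 times the control level in each mouse, with log2 ratios of 0.97 and 1.04. Its log2 fold change was 1.00 (95% interval 0.14 to 1.86; unadjusted p = 0.0303, edgeR adjusted p = 0.999), from estimated counts of 753, 1353, 442 and 696 in the same order. Lbx1, the homeobox factor of migrating muscle precursors, stood at 3.20, 3.70, 6.23 and 4.27 TPM, with the control of mouse 2 the highest. Sox8 stood at 7.42, 6.08, 10.2 and 8.02 TPM, lower with Numb exon 6 in each mouse (log2 fold change -0.30 ± 0.23, SE), while its relative Sox9 stood between 83.2 and 94.6 TPM.

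The nuclear factor I genes lay close together. Nfia stood between 50.4 and 57.0 TPM, Nfib between 61.3 and 75.5 TPM and Nfic between 28.5 and 44.8 TPM. Nfix, known for the switch from embryonic to fetal myogenesis, stood at 34.9 and 31.3 TPM in mouse 1 and at 39.5 and 37.2 TPM in mouse 2. By CPM its groups did not overlap, with Numb exon 6 the lower (log2 fold change -0.24, 95% interval -0.59 to 0.12). Rest, the repressor of neuronal genes, was likewise lower in both, at 26.1 and 28.0 TPM in the controls and at 22.0 and 25.4 TPM with Numb exon 6 (-0.24 ± 0.13, SE). Blocked on the mouse, Rest had an unadjusted p of 0.0469 (edgeR adjusted p = 0.796). Ddx5 stood at 1791 TPM in the control of mouse 1 and between 2109 and 2207 TPM in the other libraries, and its paralogue Ddx17 between 55.8 and 65.4 TPM.

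**Figure D4:**
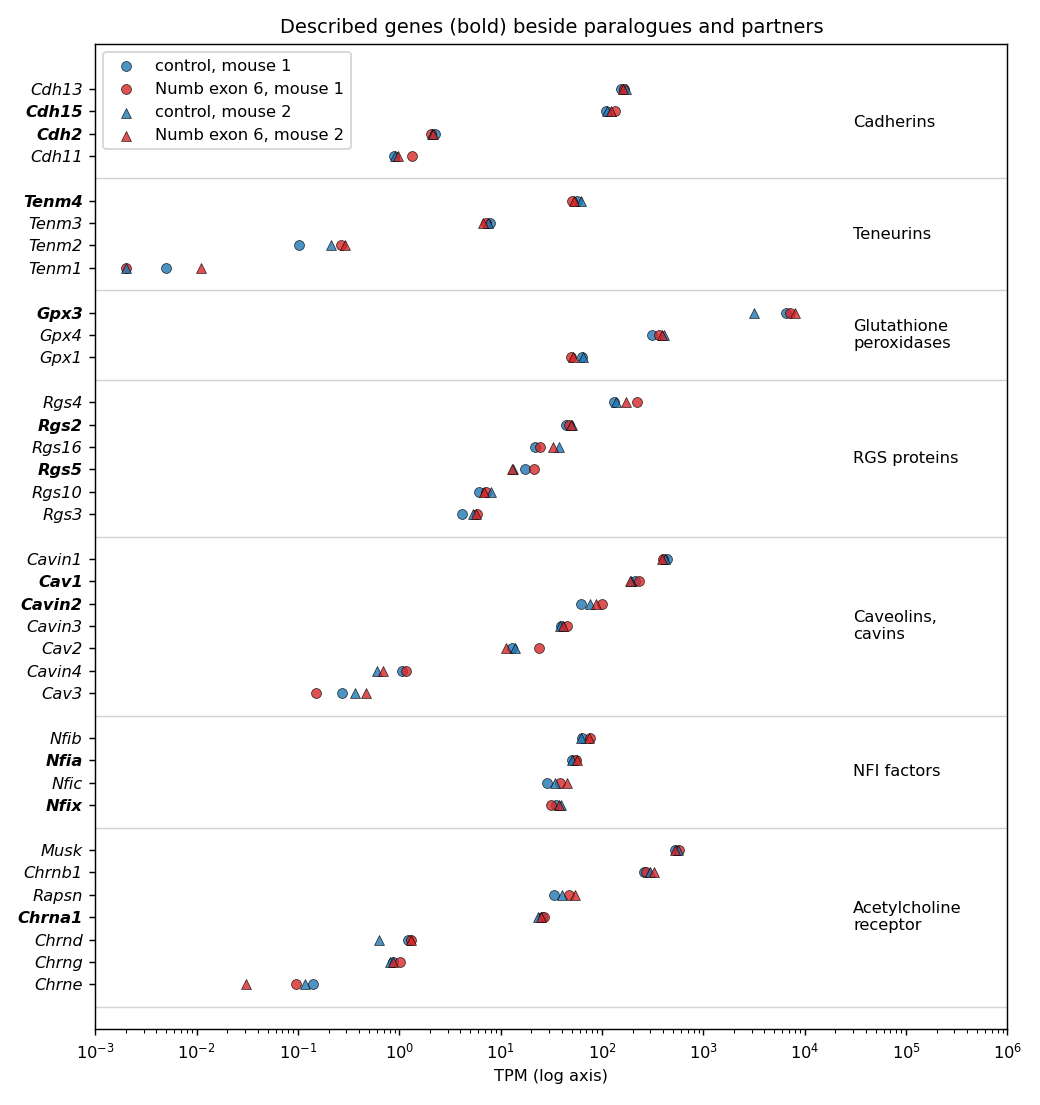
TPM (log axis) of the described genes, in bold, and of their paralogues and partners, with blue for control and red for Numb exon 6, circles for mouse 1 and triangles for mouse 2. Cdh15 lies far above Cdh2, Gpx3 above Gpx4 and Gpx1, Chrnb1 above Chrna1 and Rgs4 above Rgs2 and Rgs5 in every library, and the 4 nuclear factor I genes lie within 28.5 to 75.5 TPM.

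Of the remaining 4 genes 0 passed. Asb5 (chromosome 8, 54529580 to 54587842), which encodes an adaptor of cullin ubiquitin ligases, stood at 5509 and 6189 TPM in mouse 1 and at 5618 and 6075 TPM in mouse 2. Groups did not overlap, yet the difference was small (log2 fold change 0.08, 95% interval -0.15 to 0.31). Pdzd2, a scaffold with PDZ domains, stood between 41.6 and 46.1 TPM. By CPM its groups did not overlap, with Numb exon 6 the lower (log2 fold change -0.05, 95% interval -0.31 to 0.21), but on log2(TPM + 1) the value was 0.06. Nes, the intermediate filament nestin, stood at 10.6 and 11.3 TPM in the controls and at 8.76 and 10.3 TPM with Numb exon 6 (-0.27 ± 0.14, SE). Des, the muscle intermediate filament, stood at 747 and 746 TPM in the controls and at 709 and 681 TPM with Numb exon 6.

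Ccdc85a, a coiled-coil protein gene, had the largest log2 fold change of the 33 and the least certain. It stood at 0.669 and 1.27 TPM in mouse 1 and at 0.159 and 0.424 TPM in mouse 2. Estimated counts were 557, 1064, 94 and 210, and the log2 ratios were 1.06 and 1.53. Its log2 fold change was 1.15 (95% interval -1.28 to 3.58), and when blocked on the mouse 1.29 ± 0.32 (SE; unadjusted p = 0.0112, edgeR adjusted p = 0.796). Leaving out the mouse 1 library with Numb exon 6 made it -0.09, and leaving out the mouse 1 control made it 2.78.

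Promoter sequences were read for 4 genes that the values above turn on: Asb5 and Gpx3 as the most abundant, Meox2 for its difference between the morpholinos and Chrna1 as the muscle receptor. Each runs from 250 bases before to 50 bases after the RefSeq start (GRCm38.p6), on the strand of the gene. Lower case is used throughout, with capitals for 2 motifs searched on both strands. One is CAGCTG, an E-box that Myod1 is known to bind and that reads the same on both strands. The other is TGGGAA, the core site of RBPJ, through which Notch acts; on the opposite strand it reads as TTCCCA. The windows lie at chr8:54550081-54550380 (plus strand, the first of 3 starts) for Asb5, chr11:54902604-54902903 (plus) for Gpx3, chr12:37108290-37108589 (plus) for Meox2 and chr2:73580289-73580588 (minus) for Chrna1. For Asb5 and Gpx3 the window lies inside the GENCODE gene model, which begins at 54529580 and 54902453. Sequence before the beginning of those 2 models was not read.
Asb5: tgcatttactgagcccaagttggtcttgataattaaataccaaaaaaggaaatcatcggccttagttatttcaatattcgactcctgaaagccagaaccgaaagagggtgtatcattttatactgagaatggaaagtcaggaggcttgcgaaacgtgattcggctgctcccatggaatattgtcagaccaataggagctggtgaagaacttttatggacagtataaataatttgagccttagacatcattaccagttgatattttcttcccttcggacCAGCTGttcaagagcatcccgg
Gpx3: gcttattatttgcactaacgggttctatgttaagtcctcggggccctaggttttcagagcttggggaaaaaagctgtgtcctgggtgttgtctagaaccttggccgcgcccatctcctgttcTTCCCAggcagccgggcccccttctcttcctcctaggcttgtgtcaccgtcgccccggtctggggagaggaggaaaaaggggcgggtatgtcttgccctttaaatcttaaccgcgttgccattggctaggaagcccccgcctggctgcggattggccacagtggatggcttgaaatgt
Meox2: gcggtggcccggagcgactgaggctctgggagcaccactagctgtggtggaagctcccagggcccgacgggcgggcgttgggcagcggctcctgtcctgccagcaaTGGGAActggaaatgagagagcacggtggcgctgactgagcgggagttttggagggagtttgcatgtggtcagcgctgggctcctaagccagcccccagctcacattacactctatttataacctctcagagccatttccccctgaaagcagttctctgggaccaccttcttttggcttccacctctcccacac
Chrna1: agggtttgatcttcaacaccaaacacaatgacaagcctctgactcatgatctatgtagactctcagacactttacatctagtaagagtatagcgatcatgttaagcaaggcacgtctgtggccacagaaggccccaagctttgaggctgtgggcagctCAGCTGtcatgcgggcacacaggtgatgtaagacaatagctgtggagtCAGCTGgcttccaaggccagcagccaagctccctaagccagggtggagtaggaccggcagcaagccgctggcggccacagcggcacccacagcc

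Chrna1 held the E-box 2 times, beginning 92 and 44 bases before the start, and Asb5 held it 1 time, 28 bases after the start. Gpx3 and Meox2 each held 1 RBPJ core, beginning 128 and 144 bases before the start. RefSeq windows were matched for 25 of the 33 genes, with 36 windows in all. CAGCTG lay in 6 of the 36 (16.7%; in Asb5, Chrna1, Nfix, Pde10a, Rgs2 and Rgs5), against 16.3% of all 32851 windows. TGGGAA lay in 9 of the 36 (25.0%; in Asb5, Cav1, Ccdc85a, Chodl, Gpx3, Kitl, Meox2, Met and Tenm4), against 25.6% of all windows. For Asb5 the latter lay in another of its windows than the one printed, and 0 of the 36 windows held both motifs. Vcam1, Chrdl2, Msc, Ncam1, Megf10, Rest, Lbx1 and Cdh2 had no entry. Counted by gene, with any window of a gene, CAGCTG was found for 24.0% of the 25 against 18.3% of all 27025 genes with a window, and TGGGAA for 36.0% against 28.3%. No test was made of these shares.

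The libraries of the mice differed as well. With 1 pair of libraries per mouse, the animal cannot be told apart from the handling of its pair. Averaged on the log2 scale, the gap between mice exceeded the gap between morpholinos in 17 of the 33. The share over all genes was not taken, so this count is not read as a trait of the 33. Both libraries of mouse 2 lay above both of mouse 1 in 4 genes (Vcam1, Pde10a, Sox8 and Lbx1), against 20.9% of all genes. They lay below in 11 (Cav1, Ccdc85a, Chrdl2, Chrna1, Itm2a, Kitl, Met, Msc, Ncam1, Rgs5 and Tek), against 18.8%. Vcam1 was the higher in mouse 2 by log2 differences of 0.54 under the control and 0.40 under the Numb exon 6 morpholino. The log2 difference, mouse 2 minus mouse 1, was -0.54 and -0.47 for Msc, -0.58 and -0.51 for Meox2, -0.42 and -0.70 for Rgs5, and -2.38 and -1.89 for Ccdc85a. For these 5 the gap between mice kept its direction under each morpholino, and no test was made with 1 mouse against 1. Gpx3 and Calcr were unlike them: the mice differed by -1.10 and -0.86 under the control, and by 0.15 and 0.03 under the Numb exon 6 morpholino.

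**Figure D5:**
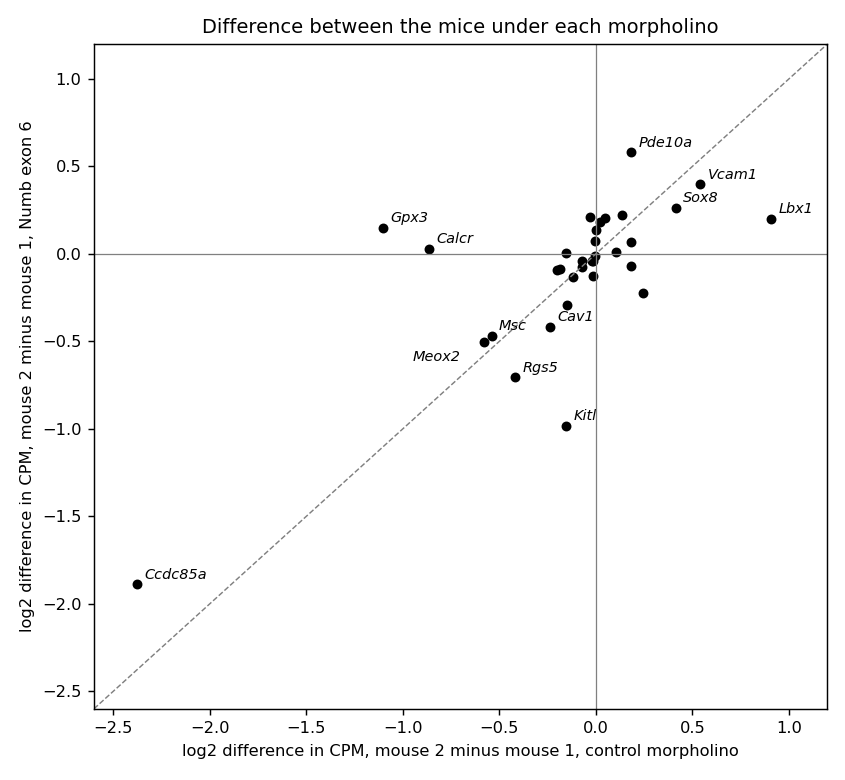
Log2 difference in CPM, mouse 2 minus mouse 1, under the control morpholino (horizontal axis) against that under the Numb exon 6 morpholino (vertical axis), 1 point per gene, with equality dashed. Vcam1, Msc and Meox2 lie near the dashed line, Ccdc85a lies far below 0 on both axes, and Gpx3 and Calcr lie far to the left at a vertical value near 0.

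Partners and paralogues of the 33 and further quiescence genes were read from the same fit. These lists were chosen with earlier results of these data known, so their shares beside those of all genes are descriptions and not a test. Of 62 partners and relatives 61 were tested, and edgeR called 0 higher and 0 lower, with a median log2 fold change of 0.06. Unadjusted p values under 0.05 were found for 4 (Rgs4, Rapsn, Ramp1 and Megf11, of which Megf11 is named for its values alone), and for 9 when blocked on the mouse (14.8%, against 6.09% of all genes), where 0 were called. The most abundant were Pde4b and Des. Of 24 quiescence genes outside the 33, edgeR called 0 in either direction, while 13 were higher (54.2%, against 28.1% of all genes) and 2 lower in both mice and the median log2 fold change was 0.12. The unadjusted p was under 0.05 for 1 of them, and for 8 when blocked on the mouse (33.3%, against 6.09% of all genes), where 0 were called. It was Dag1, named here for its values, which encodes the laminin receptor dystroglycan, at 128 and 122 TPM in the controls and 254 and 166 TPM with Numb exon 6. The heparan sulfate proteoglycan Sdc4 and the laminin receptor subunit Itga7 were the most abundant of the quiescence genes, at 6499 to 7673 TPM and at 205 to 213 TPM, with log2 fold changes of 0.10 ± 0.09 and -0.03 ± 0.11 (SE).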

How the data were processed

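RNA of 4 libraries (5 ng each) was made into cDNA by SMART-Seq2, per the labels' protocols, which does not mark the strand. Alignment and assembly used HISAT2 2.1.0 and StringTie 1.3.6 on GRCm38, per the submitters' processing notes. The authors' deposited estimated counts are whole numbers per gene, so no rounding was needed. TPM, as the authors deposited it, divides by transcript length and by library total. How StringTie's output was turned into counts, the annotation release and the read length are not given in the sources used.

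Levels are TPM. The test was edgeR 4.0.16 in R 4.3.3 on the estimated counts (quasi-likelihood, robust, TMM, default expression filter by group, no block, Benjamini-Hochberg at 0.05), fitted on the whole table of 27551 genes. Differences are log2 fold changes of Numb exon 6 over control, with the SE from the quasi-likelihood statistic, log2 ratios within a mouse use a prior count of 2, and n is 2 per group throughout. The labels place 1 library of each morpholino in each mouse, so the mouse pairs the libraries. Deviations from group means of libraries of a mouse correlated at 0.41 among genes whose mean log2 CPM reached 3 and at 0.06 among all tested. Among the 33 the value was 0.72, but these include Ccdc85a, with mean log2 CPM of 0.62 and far larger mouse differences than the rest (-2.38 and -1.89). The correlation without Ccdc85a was not taken, so 0.72 is not read as a stronger pairing of the 33.

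Gene models are from GENCODE vM21 and promoters from RefSeq, both on GRCm38. All 33 genes were described. Of other lists, called genes, the 2 most abundant, partners of a described gene and markers showing what made up a sum were named. The members and lists were chosen with earlier results of these data known. The tests were checked on simulated counts that held no difference between the mice. Those counts cannot show how the tests behave where libraries are paired by mouse. Alternatives were the mouse block, RLE size factors, 2 filters, DESeq2 1.42.0, limma-voom (limma 3.58.1), limma on log2(TPM + 1) and log2(TPM + 0.1), counts divided by 4 and removal of each library.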

Additional observations from a re-analysis of the deposited data

How the results depend on the processing

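Each group had 2 libraries, which limits the precision of every value. The count of the 33 genes past the threshold was 0 in every setting except DESeq2 with the mouse as a block, where it was 1 (Msc). With the mouse as a block in edgeR it was 0, no call changed, and the median log2 fold change of the 33 was 0.05. Leaving out 1 library at a time gave 0 calls among the 33, 0 to 1 over all genes and a median of -0.0272 to 0.1012; where 1 arm then held 1 library, it was assumed to vary like the other. Over all genes the calls numbered 10 without a filter on low counts, 1 where 2 libraries had to reach a CPM of 5, 65 in DESeq2 and 157 in DESeq2 with the mouse as a block, against 0 in the main test; the cause was not tested.

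The sign of the log2 fold change was the same in every alternative for 18 of the 33 genes, and Msc alone changed its call. The filter at a CPM of 5 left 31 of the 33, without Meox2 and Ccdc85a, so it gave no value for those 2. Kitl was -0.0421 with the mouse as a block in edgeR, -0.0432 in DESeq2 with that block and -0.0086 in limma-voom, and Itm2a was -4e-04 without a filter. On log2(TPM + 1), Calcr was 0.0214, Ncam1 0.0032, Chrdl2 0.043, Pde10a 0.0247, Cav1 0.0489 and Pdzd2 0.0572, and on log2(TPM + 0.1) they were 0.0229, 0.0032, 0.0431, 0.0253, 0.0491 and 0.0583. TPM is not scaled by TMM: on it 26 of the 33 were above 0, against 20 in the main test. Without 1 library at a time the range was -0.44 to 0.43 for Calcr, -0.17 to 0.36 for Vcam1, -0.1551 to 0.0076 for Cdh2, -0.0535 to 0.0292 for Chrdl2, -0.27 to 0.15 for Cav1, -0.0971 to 0.1972 for Met, -0.0812 to 0.1164 for Chrna1, -0.54 to 0.44 for Kitl, -0.037 to 0.0427 for Itm2a, -0.30 to 0.40 for Rgs5, -0.35 to 0.23 for Pde10a, -0.0889 to 2.7791 for Ccdc85a and -0.68 to 0.22 for Lbx1.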

Other observations

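Estimated counts divided by TPM and by a constant for each library give the mean length of the transcripts to which the reads of a gene were assigned. The constant was the median of counts over TPM and length, among genes with 1 annotated transcript and over 500 estimated counts. For 27 of the 33 genes this length differed by under 10% between the 4 libraries, and 6 of the 33 have 1 annotated transcript, where it cannot differ. For Sox8, Pde10a, Rgs2, Tenm4, Ccdc85a and Kitl it differed by 10.9%, 13.5%, 14.4%, 16.2%, 37.0% and 38.5%. Kitl had mean lengths of 4018 and 5004 bases in mouse 1, control first, and of 4869 and 3612 bases in mouse 2. Its TPM was 4.04 and 4.43 in mouse 1 and 3.10 and 3.12 in mouse 2, whereas its CPM was 8.75 and 11.3 in mouse 1 and 7.87 and 5.73 in mouse 2.

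Exons of 10 of the 33 overlap those of another gene model, which matters where strand is not kept. For Sox8 the overlapping antisense model 2810468N07Rik held 321, 444, 402 and 307 estimated counts against 3053, 2411, 3562 and 2116 of Sox8, in the order control and Numb exon 6 of mouse 1, then of mouse 2. For Asb5 it was Spcs3, where the longest shared stretch of exon is 75 bases. The antisense model at Msc, Gm9947, held 656 to 981 estimated counts against 86408 to 174752 of Msc.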
